A study of Mus musculus with 2 samples.

Results

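The proteasome subunit genes were followed in brown fat of wild-type mice (WT) and of mice without the nuclear receptors RORa and RORg (DKO). They were taken as every probe on the array whose gene name begins with Psma, Psmb, Psmc, Psmd, Psme, Psmf or Psmg. This gave 46 probes for 36 gene names, of 41174 probes for 38354 gene names in all. All but 1 of the 36 names belong to the proteasome or its regulators. The exception, Psmc3ip, codes for a recombination protein and is matched by its name alone.

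Interscapular brown adipose tissue came from 4 male C57BL/6 mice of each genotype, 2 to 3 months old, taken near circadian time 20. The DKO mice carried RORa-/- and RORg-/-, and the WT mice carried neither. The sources used here give neither how the alleles were made nor whether RNA of the 4 mice was pooled. The 2 genotypes were labelled with different dyes and hybridised together on each of 2 arrays. DKO was in Cy5 and WT in Cy3 on array 1, and the dyes were reversed on array 2. The labels do not say if the arrays shared their RNA extracts, so the pair was counted as 1 replicate per genotype and no test was made. Each value is the log2 ratio of DKO over WT, given for each array and as the mean ± SD (n = 2 arrays). Dye effects and measurement error enter that SD, which cannot be read as the spread between animals.

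The proteasome is the cell's main machine for breaking down proteins marked with ubiquitin. Its barrel-shaped 20S core is built from rings of alpha and beta subunits, and 3 of the beta subunits cut the protein chain. Caps bind the ends of the core: the 19S cap recognises, unfolds and feeds in ubiquitin-marked proteins, and the 11S caps and PA200 open the core in other ways. Interferon induces the immunoproteasome, in which Psmb8, Psmb9 and Psmb10 take the places of the cutting subunits Psmb5, Psmb6 and Psmb7. Brown fat is known to need high proteasome activity in the cold, which is maintained by the transcription factor Nfe2l1.

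The mean ratios of the subunit genes were small in these preparations, but the arrays disagreed in sign for 21 of the 35 measured genes. On single arrays the ratios ran from −0.51 for Psmb5 to 0.93 for Psmd4. The means of the 35 measured genes ran from −0.20 for Psme3 to 0.37 for Psmc3, which is 0.872-fold to 1.29-fold. None passed a size rule in either direction. Of all 30441 measured genes, 0.0986% were called higher and 0.023% lower by the 2-fold rule (a mean of at least 2-fold with each array at least 1.5-fold the same way). By the 1.5-fold rule, with each array at least 1.2-fold, 0.342% of all measured genes were called higher and 0.237% lower. At 1.2-fold on each array with no limit on the mean, 0.89% were higher and 0.726% lower. At such shares about none of 35 genes would be called.

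In small shifts of sign, 14 of the 35 genes were above 0 on both arrays, 0 were below 0 on both, and 21 took opposite signs on the 2 arrays. Psmc3ip, matched by its name alone, was among the 14. Without it 13 of 34 genes were above 0 on both arrays and 0 below. The median of those 34 was 0.08 (−0.03 on array 1 and 0.21 on array 2). Over all measured genes, 19.4% were above 0 on both arrays and 17.8% below. The median of the 35 genes was 0.07, beside 0.0024 over all measured genes. The 2 arrays placed the proteasome genes differently: their median was −0.01 on array 1 and 0.21 on array 2. On array 1, 16 genes were above 0, and on array 2, 33 were. Array 2 gave the higher ratio for 27 of the 35 genes, a share of 77.1%, beside 49% of all measured genes. Where the 2 arrays take opposite signs, the distance of either from the mean is by definition larger than the mean itself. These are the same 21 of the 35 genes (60.0%), beside 62.8% of all measured genes. Whether the dye accounts for the difference between the arrays was not tested.

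**Figure D1:**
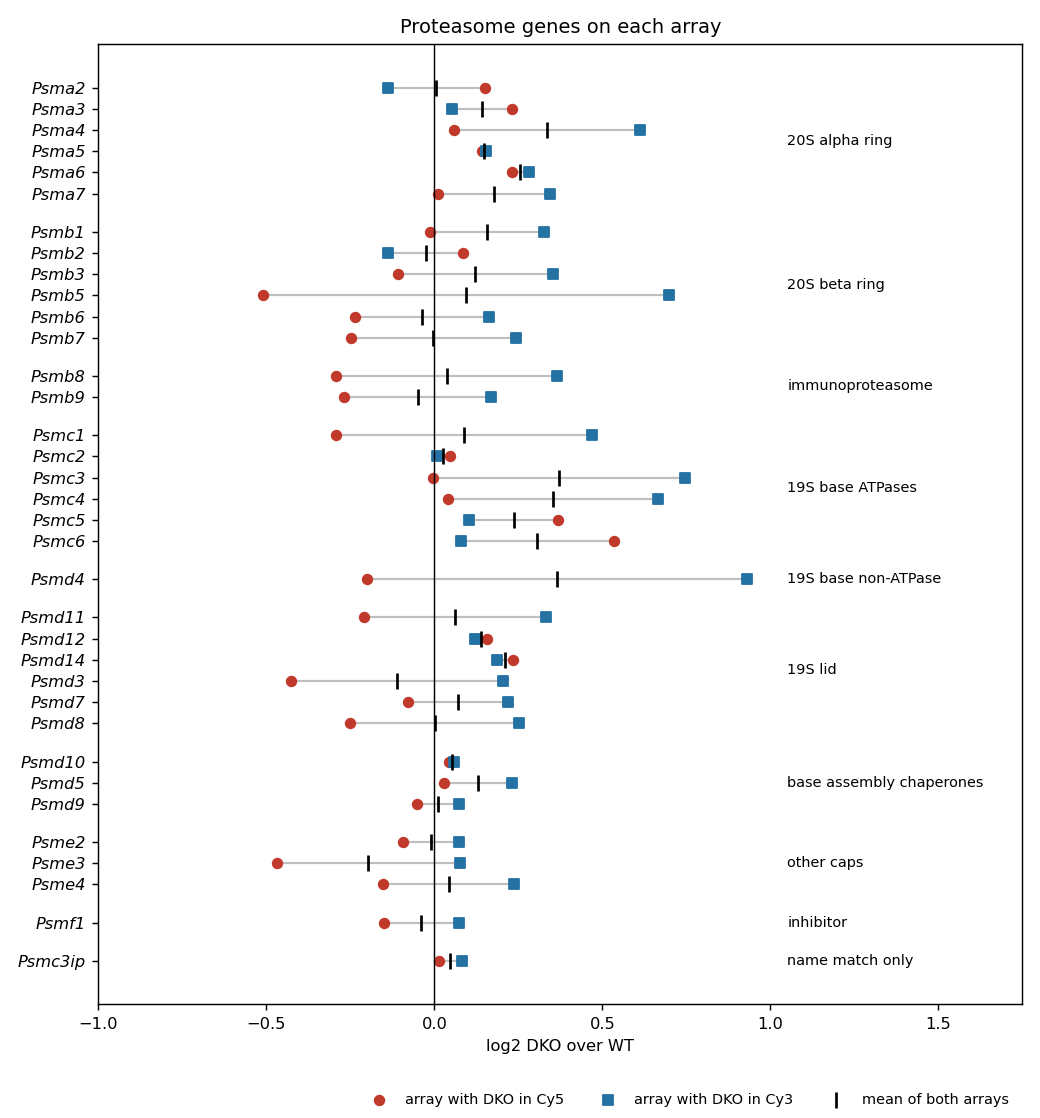
Log2 ratio of DKO over WT of each measured proteasome gene (rows, grouped by role) on array 1 (DKO in Cy5, circles) and array 2 (DKO in Cy3, squares), with the mean of both as a black tick. The alpha ring genes lie mostly right of 0 on both arrays, while each gene of the beta ring and of the immunoproteasome has its 2 arrays on opposite sides of 0.

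Regulatory sequence was read for a few members of the classes that are compared. Shown are the bases just upstream of the RefSeq gene start, on the gene's strand in assembly GRCm38.p6, for genes that have a single promoter window. Psma5 and Psmc6 stand for the alpha ring and the ATPases, whose genes lay mostly above 0 on both arrays by the probes found by name. Psmb5 and its immunoproteasome counterpart Psmb8 stand for the genes whose arrays disagreed. These 4 were chosen after their values were seen. Capitals mark a match to any of the motifs named after the sequences. The windows are chr3:108256676-108256925 on the plus strand for Psma5 and chr14:45329574-45329822 on the plus strand for Psmc6. They are chr14:54617996-54618245 on the minus strand for Psmb5 and chr17:34197945-34198194 on the plus strand for Psmb8.
Psma5: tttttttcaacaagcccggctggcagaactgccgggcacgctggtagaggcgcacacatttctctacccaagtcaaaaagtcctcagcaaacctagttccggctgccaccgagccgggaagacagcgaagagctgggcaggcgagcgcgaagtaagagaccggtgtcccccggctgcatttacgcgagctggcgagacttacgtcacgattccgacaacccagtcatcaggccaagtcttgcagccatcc
Psmc6: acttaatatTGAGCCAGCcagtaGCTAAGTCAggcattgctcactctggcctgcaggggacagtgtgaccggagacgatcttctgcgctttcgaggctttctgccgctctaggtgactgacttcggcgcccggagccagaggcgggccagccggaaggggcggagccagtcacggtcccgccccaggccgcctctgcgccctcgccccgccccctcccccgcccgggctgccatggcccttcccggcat
Psmb5: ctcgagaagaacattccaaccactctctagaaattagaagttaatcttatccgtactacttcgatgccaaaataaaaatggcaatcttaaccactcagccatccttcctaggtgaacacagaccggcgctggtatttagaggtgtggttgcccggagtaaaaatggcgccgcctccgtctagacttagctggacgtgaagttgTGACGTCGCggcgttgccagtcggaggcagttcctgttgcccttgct
Psmb8: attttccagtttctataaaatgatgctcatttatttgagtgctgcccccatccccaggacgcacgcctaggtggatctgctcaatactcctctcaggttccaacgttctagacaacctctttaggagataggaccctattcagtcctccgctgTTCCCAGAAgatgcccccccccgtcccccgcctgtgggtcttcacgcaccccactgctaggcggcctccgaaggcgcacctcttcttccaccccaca
Promoter windows were found for 30 of the 36 family genes and for 27025 genes in all, and both strands of the 250 bases upstream were searched. TGACNNNGC, the core of the antioxidant response element that Nfe2l1 and Nfe2l2 bind, was found for 5 of the 30 (16.7%) and for 11.5% of all genes. Psmb5 holds it as TGACGTCGC, with its first base 47 bases before the start. Psmc6 holds it on the other strand as TGACTTAGC. The looser TGANNNNGC, which includes every match of the first motif, was found for 13 of 30 (43.3%) and for 38.7% of all genes. TAGGTCA, a site of the ROR receptors, was found for 1 family gene, Psmc2 (3.33%, beside 2.55% of all genes). TTCNNNGAA, the interferon-gamma activated site, was found for 1, Psmb8 (3.33%, beside 8.13%), where it reads TTCCCAGAA. The interferon-stimulated response element was found for Psmb3, Psmd4 and Psmd9, 3 of 30, beside 3.46% of all genes. These are matches of letters in the window and are given as a description.

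The alpha ring, which forms the gate of the core, had 6 genes found by name, all measured, with a median of 0.16 (0.15 on array 1 and 0.22 on array 2). All 6 means were above 0, and 5 of the 6 genes were above 0 on both arrays. Psma6 read 10.34 in WT and 10.57 in DKO on array 1, and 10.52 and 10.81 on array 2, in normalised log2 intensity. Its ratio was 0.23 on array 1 and 0.28 on array 2, a mean of 0.26 ± 0.04. Psma5 gave the closest pair of values in this ring, 0.14 and 0.15. Psma4 had the highest mean of the ring at 0.33 ± 0.39, with 0.06 on array 1 and 0.61 on array 2, so that mean rests on array 2. A second Psma4 probe read 0.13 and 0.42. The lowest mean, which was also that of the brightest probe, was Psma2 at 0.0060 ± 0.21, with 0.15 on array 1 and −0.14 on array 2. Psma3 (0.14 ± 0.13) and Psma7 (0.18 ± 0.24) lay between.

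The constitutive beta ring gave another picture. Each of its 6 genes took opposite signs on the 2 arrays, and the ring's median of 0.05 came from −0.17 on array 1 and 0.28 on array 2. Psmb5, the subunit with chymotrypsin-like activity, read 10.43 in WT and 9.92 in DKO on array 1. On array 2 the same probe read 9.63 in WT and 10.33 in DKO. The genotype labelled with Cy3 was thus the brighter on both arrays, and the ratios of −0.51 and 0.70 averaged 0.10 ± 0.85. Psmb6, the caspase-like subunit and the brightest and lowest of the ring, read −0.24 and 0.16, a mean of −0.04 ± 0.28. Psmb7, the trypsin-like subunit, read −0.25 and 0.24, a mean of −0.0032 ± 0.35. Psmb1, a structural subunit, had the highest mean of the ring at 0.16 ± 0.24. Psmb2 was the 1 beta gene higher on array 1, with 0.08 and −0.14, and Psmb3 read −0.11 and 0.35. The alpha ring median minus the beta ring median was 0.32 on array 1 and −0.07 on array 2, so the arrays did not give the rings 1 order.

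The immunoproteasome subunits found by name were Psmb8 and Psmb9, and both had their arrays on opposite sides of 0. Psmb8, which replaces Psmb5, read 8.10 in WT and 7.81 in DKO on array 1, and 7.74 and 8.11 on array 2. Its ratios of −0.29 and 0.37 gave a mean of 0.04 ± 0.47. Psmb9, which replaces Psmb6, read 7.69 in WT and 7.42 in DKO on array 1, and 7.49 and 7.66 on array 2. The mean of its ratios, −0.27 and 0.17, was −0.05 ± 0.31. Their median was −0.01, −0.28 on array 1 and 0.27 on array 2. Each constitutive partner showed the same order of arrays, below 0 on array 1 and above 0 on array 2. The means were 0.10 for Psmb5 and 0.04 for Psmb8, and −0.04 for Psmb6 and −0.05 for Psmb9. Psmb5 lay below Psmb8 on array 1 (−0.51 and −0.29) and above it on array 2 (0.70 and 0.37). Psmb6 and Psmb9 lay close on each array (−0.24 and −0.27, then 0.16 and 0.17). Partners were read on the same arrays, so the SD of each gene does not measure the spread of their difference.

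The base of the 19S cap holds a ring of 6 ATPases, which unfold the substrate and open the core. All 6 were measured and all 6 means were above 0, with a median of 0.27 (0.04 on array 1 and 0.29 on array 2). Of them, 4 were above 0 on both arrays. Psmc6, the brightest, read 10.05 in WT and 10.58 in DKO on array 1, and 10.37 and 10.45 on array 2. Its ratios of 0.53 and 0.08 gave 0.31 ± 0.32, and here array 1 carried most of the mean. Psmc3 had the highest mean of the whole family, 0.37 ± 0.53, from −0.0044 on array 1 and 0.75 on array 2. Psmc4 was alike, with 0.04 and 0.67. Psmc2 had the lowest mean at 0.03 ± 0.03 on its probe found by name. Psmc1 read −0.29 and 0.47. For Psmc5 the brighter probe read 0.37 and 0.10 and a dimmer probe −0.30 and 0.77, so the probes disagreed on array 1 while both means were 0.24.

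Psmd4, a receptor for ubiquitin chains and the only other base subunit found by name, had a wide gap between its arrays. It read 9.57 in WT and 9.37 in DKO on array 1, and 8.83 and 9.76 on array 2. The ratios were −0.20 and 0.93, and the mean was 0.36 ± 0.80.

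The lid of the 19S cap removes ubiquitin chains before the substrate enters. Its 6 genes found by name had a median of 0.07, −0.14 on array 1 and 0.21 on array 2, and 2 were above 0 on both arrays. Those were Psmd14, the deubiquitinating subunit, with 0.23 and 0.19 (mean 0.21 ± 0.03, the highest of the lid), and Psmd12, with 0.16 and 0.12 (mean 0.14 ± 0.02). Psmd3, the lowest and brightest, read 11.77 in WT and 11.35 in DKO on array 1, and 11.47 and 11.68 on array 2. Its mean was −0.11 ± 0.45. The genes Psmd7, Psmd8 and Psmd11 read below 0 on array 1 and above 0 on array 2, with means of 0.07, 8.62e-04 and 0.06.

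Probes of one lid gene did not always read alike. The 3 Psmd12 probes had means of 0.14, 0.06 and 0.22, and the dimmest of them read 0.02 on array 1 and 0.41 on array 2. Psmd7 probes had means of 0.07, 0.13 and 6.61e-04. One of them, A_52_P676913, read −0.45 on array 1 and 0.71 on array 2. The second Psmd8 probe read −0.12 and −0.06 and was the only measured family probe below 0 on both arrays. In all, 6 genes had 2 or more measured probes.

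Genes with roles outside the mature 26S particle had means from −0.20 for Psme3 to 0.13 for Psmd5. The chaperones that assemble the base had a median of 0.05: Psmd5 read 0.13 ± 0.14, Psmd10 (gankyrin) 0.05 ± 0.01 and Psmd9 0.01 ± 0.09. The second Psmd9 probe read −0.09 and 0.31. Of the 11S cap subunits, Psme2, induced by interferon, read 11.26 in WT and 11.17 in DKO on array 1, and 11.21 and 11.28 on array 2, a mean of −0.01 ± 0.12. Psme3, the nuclear 11S subunit, had the lowest mean of the family. It read 12.65 in WT and 12.18 in DKO on array 1, and 12.32 and 12.39 on array 2. The ratios were −0.47 and 0.08 and the mean −0.20 ± 0.38, so this low value rests on array 1. Psme4, which codes for PA200, read 0.04 ± 0.27. Psme1, the partner of Psme2, had an outlier spot on array 1 and could be read on array 2 alone, at −0.13. The inhibitor gene Psmf1 read −0.04 ± 0.16 and Psmc3ip 0.05 ± 0.05. The other family probes without a measured value were the second probes of Psma2 and of Psmc3ip, which were not well above background.

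Core and cap were next set side by side. The 12 constitutive core genes had a median of 0.13 and the 13 cap genes a median of 0.14. The core minus cap difference was −0.0065, and it was 0.04 on each array alone when the medians were taken there. On array 1 the medians were 0.03 for the core and −0.0044 for the cap, and on array 2 they were 0.26 and 0.22. Of the core genes 5 were above 0 on both arrays, and of the cap genes 6. The immunoproteasome pair lay lower than both on array 1 (−0.28) and near them on array 2 (0.27). The core and cap medians differed by less than the distance between the arrays for either class. Both classes share the arrays, so that distance does not measure the spread of the core minus cap difference. Without loess, with each array centred on its median, the core median was 0.27, the cap median 0.28 and the immunoproteasome median 0.07, while the median of all genes moved from 0.0024 to 0.04.

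**Figure D2:**
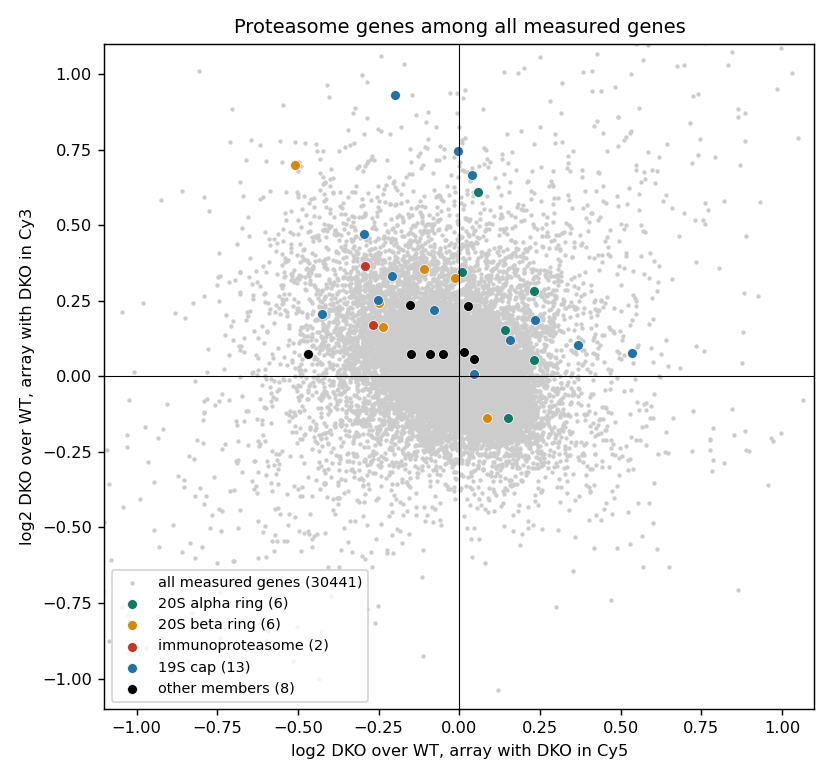
Log2 ratio of DKO over WT on array 1 (horizontal) against array 2 (vertical) for all 30441 measured genes (grey; points beyond ±1.1 lie outside the axes) and the 35 proteasome genes (coloured by class). Most proteasome genes lie above the horizontal line at 0 and none lies below 0 on both axes, while 16 of 35 lie right of the vertical line at 0.

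Across the 35 genes the 2 arrays had a Pearson correlation of −0.32. It was −0.02 over all measured genes and 0.11 over the 3111 genes whose log2 intensity averaged 9 or more. These are descriptions across genes, which share the arrays and their dyes and are not replicates. Within that brighter group 22 proteasome genes were found. Of these 8 were above 0 on both arrays and 0 below, beside 19.3% and 18.8% of all bright genes, and their median was 0.11 beside 0.0090. Array 2 gave the higher ratio for 16 of the 22 (72.7%), beside 53.4% of all bright genes. The scanner software's own error model, which covers measurement error within a single array, gave a p-value under 0.01 for 4 of 43 measured family probes on array 1. Of those, 1 was higher and 3 lower in DKO, where over all 32421 measured probes 1.34% were higher and 3.18% lower. On array 2 it did so for 12, all higher in DKO, where 4.07% of all measured probes were higher and 1.02% lower. The family probes were brighter, with a median log2 intensity of 9.20, beside 7.10 over all measured genes. No share over probes of like intensity was computed for these p-values. Only Psmb5 and a Psmd7 probe passed on both arrays, and each did so in opposite directions.

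Older file names hid some subunits from the rule, and matching by accession, a step added after the data were seen, found 20 further probes. They covered 10 listed genes absent by name and gave second probes for others, and 19 were measured. The alpha ring was then complete: Psma1 read 0.76 on array 1 and 0.08 on array 2, a mean of 0.42 ± 0.48, the highest of any subunit. With it, 6 of 7 alpha genes were above 0 on both arrays and the ring's median was 0.18 (0.15 on each array). The beta ring gained Psmb4, with 0.09 and 0.21, and its median was −0.0032 over 7 genes. For that ring a brighter second Psmb3 probe, at −0.07 and 0.05, took the place of the first.

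Psmb10, the third immunoproteasome subunit, read −0.50 on array 1 and 0.07 on array 2. Its mean of −0.21 ± 0.40 was the lowest of any subunit, and that of its constitutive partner Psmb7 was −0.0032. A second Psmb8 probe read −0.27 and 0.38, close to the −0.29 and 0.37 of the first. All 3 immunoproteasome genes were below 0 on array 1 and above 0 on array 2. In the cap, Psmd2, the large scaffold of the base, read −0.39 and 0.30, and the lid subunits Psmd6 and Psmd13 had means of 0.17 and 0.11. Second probes of Psmc2 and Psmc4 were brighter than the first and took their place. Psmc2 then read 0.03 and 0.47 and Psmc4 −0.0081 and 0.52, each with a mean of 0.25. With them 3 of the 6 ATPases were above 0 on both arrays, in place of 4, and Psmc1 had their lowest mean. The ATPase median was then 0.25 (0.01 on array 1 and 0.47 on array 2). A second Psmd14 probe read 0.15 and 0.26. Of the chaperones that assemble the core, Psmg1 read 0.21 and 0.26 (mean 0.24 ± 0.03), while Psmg2 and Psmg3 had means of 0.03 and 0.0025. Psmb11, the thymus subunit, was not well above background. With these probes 17 of 44 measured genes were above 0 on both arrays and 0 below, and none passed a size rule. The core median was then 0.15 and the cap median 0.15.

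Genes that work with the proteasome were read next, from lists of known function. Of 17 companion genes (shuttle factors, deubiquitinases and assembly factors), 16 were measured, with a median of 0.06 (0.04 on array 1 and 0.07 on array 2). Among them 5 were above 0 on both arrays and 0 below. The brightest, Sem1 and Pomp, which code for a small cap subunit and a core assembly factor, read −0.02 ± 0.09 and −0.03 ± 0.30. Rad23b, a shuttle factor, read 0.15 on each array, and the ubiquitin receptor gene Adrm1 0.08 on each. The 5 regulators measured had a median of 0.09 (0.09 on array 1 and 0.08 on array 2). Of these 2 were above 0 on both arrays (Bach1 and Ngly1) and 1 below (Nfe2l1). Nfe2l1 read −0.09 and −0.12, and Nfe2l2 read 0.37 and −0.01. The ubiquitin and E1 genes had a median of −0.01 over 6 genes, of which 1 was above 0 on both arrays and 2 below. No gene of these lists passed a size rule.

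Interferon-induced and antigen-processing genes, which share their inducer with the immunoproteasome, had a median of −0.02 over 14 measured of 18 (−0.12 on array 1 and 0.04 on array 2). Of these 2 were above 0 on both arrays and 3 below (Irf1, Ifit3 and Stat2), and none passed a size rule. Irf1, a transcription factor of the interferon response, had the lowest mean at −0.18 ± 0.12. The brightest, H2-T23 and B2m of antigen presentation, read 0.12 ± 0.55 and −0.11 ± 0.31.

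Cell type markers were read because whole tissue was measured, in which fewer cells of a type and less RNA per cell cannot be told apart. The tissue's own markers were present: all 8 brown adipocyte markers were measured, with a median of 0.36 (0.28 on array 1 and 0.44 on array 2), 6 above 0 on both arrays and 1 below. Ucp1, the uncoupling protein, read 0.74 on array 1 and 0.73 on array 2. Elovl3 (1.02) and Dio2 (1.89) passed the 2-fold rule. Cidea, the brightest of the list and saturated, read −0.16 and −0.12, and the brown fat regulator Prdm16 had a mean of −0.08 ± 0.29. Leukocytes express the immunoproteasome strongly. Of 15 leukocyte markers 13 were measured, with a median of 0.0032 (0.09 on array 1 and −0.0040 on array 2). Their summed linear intensity was 4334 in WT and 4654 in DKO on array 1, and 3815 and 3814 on array 2, and Cd4 and Itgam were not well above background. Skeletal muscle markers stood higher in DKO: all 8 measured of 9 were above 0 on both arrays, with a median of 0.77 (0.52 on array 1 and 1.13 on array 2). Eno3 (0.97 and 1.44) and Mb (0.73 and 1.28) passed the 2-fold rule. The summed muscle marker intensity, which holds the same offset, was 8260 in WT and 11983 in DKO on array 1, and 7084 and 14232 on array 2. Array 2 gave the higher ratio for 49% of all measured genes, and the lists differed in this. It did so for 8 of 8 muscle genes, 4 of 5 general adipocyte genes and 5 of 8 brown adipocyte genes. The same held for 10 of 14 antigen-processing and interferon genes. For 8 of 16 companion genes, 3 of 6 ubiquitin and E1 genes and 2 of 5 regulators array 2 was the higher. Only 2 of 13 leukocyte markers and 1 of 4 endothelial markers were higher on array 2. The adipocyte list had a median of 0.07 (−0.09 on array 1 and 0.34 on array 2), and the endothelial list a median of −0.03 (0.02 and −0.09). The part of muscle RNA in the proteasome values was not tested.

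**Figure D3:**
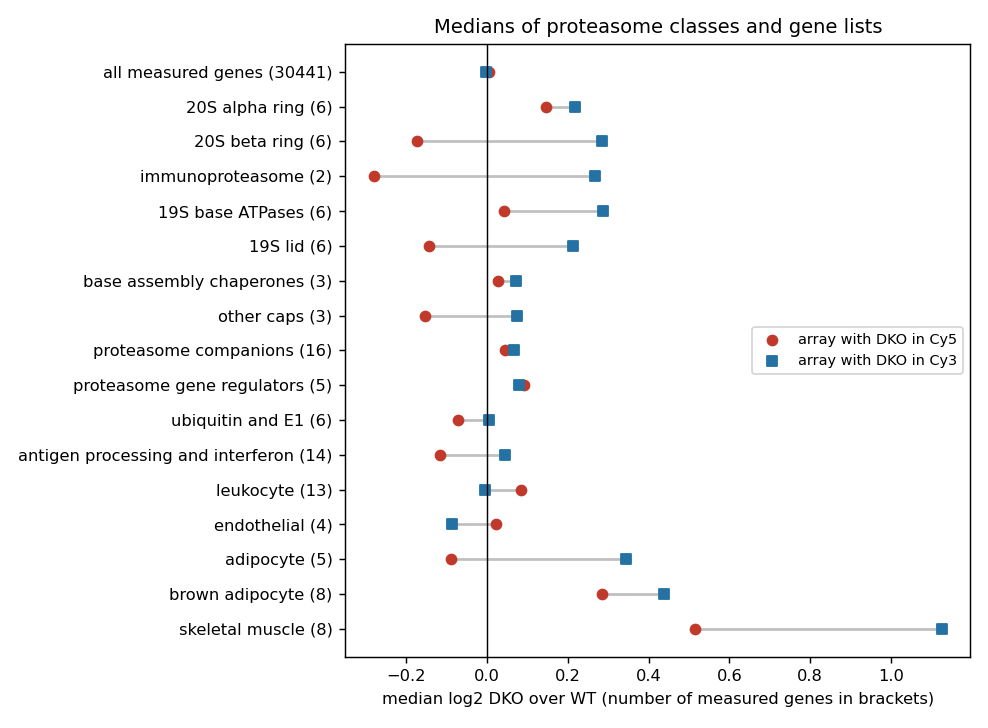
Median log2 ratio of DKO over WT on array 1 (DKO in Cy5, circles) and array 2 (DKO in Cy3, squares) for all measured genes, proteasome classes and other gene lists, with the number of measured genes in brackets. The beta ring, immunoproteasome, lid and other caps lie left of 0 on array 1 and right of 0 on array 2, while the muscle list lies at 0.52 and 1.13.

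The arrays as a whole limited what could be seen. The share of probe spots that stood well above background ran from 77.6% to 85.4% over the 4 channels. Rora, one of the deleted genes, read −0.42 on array 1 and −0.35 on array 2, lower in DKO on each. The sources used here do not place its probe relative to the deletion. With 2 arrays, their number limits the precision.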

How the data were processed

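RNA of WT and DKO brown fat was measured on 2 two-colour Agilent arrays with reversed dyes. Images were read by the authors in Agilent Feature Extraction 7.5 with its defaults, as the submitters' processing notes and the labels say. Deposited spot files hold signals as linear intensity, log10 ratios of red over green, and a p-value of each ratio from the software's error model, per the file headers. A deposited table for the whole series gives log2 ratios. Within 0.001 these matched red over green from the spot files for 40962 of 41001 and 41101 of 41141 values, and both medians were 0. Rosetta Resolver, named in the labels, came later, with steps not given in those sources.

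Mean signals were corrected with normexp (offset 50) and loess-normalised within arrays, using limma 3.58.1 (R 4.3.3) and giving controls a weight of 0. An added offset pulls dim probes towards 0. Outlier spots were left out (171 and 29), the sign was turned on array 2, and a gene was read from its brightest measured probe. Measured means well above background (2.6 background SDs) in a genotype on both arrays. The summary was tested on simulated data. Genes named were each class's highest, lowest and brightest, all immunoproteasome and 11S genes with their partners, genes whose probes disagreed, and the 2 brightest of each list without a called gene; others were chosen after their values were seen. Some genes that this rule names are not reported here.

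Accessions were matched to RefSeq (GRCm38.p6) for 18530 probes. Members and lists were chosen with earlier results of these data known. Alternatives covered offset, ratio source, signal, centring, dim filter, probe rule, threshold and single arrays. Summaries were made with pandas 2.3.3 and numpy 2.4.6 in Python 3.11.15, and figures with matplotlib 3.10.9.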

Additional observations from a re-analysis of the deposited data

How the results depend on the processing

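Single arrays aside, 73 of 78 recomputed summary values moved by less than the SD of the same value over the 2 arrays or, for counts, by at most 1.5 times. That SD is wide for the class medians, so a small move says little about stability: the core median was 0.13 and reached 0.27 with median centring. Dropping the dim filter, asking for both genotypes above background, or taking the median of probes left every summary value unchanged. The deposited log2 ratios nearly repeat the software's ratios. The recomputed values are thus not separate checks. The core minus cap difference was −0.0065 from the mean ratios, which lies outside the single-array values of 0.0385 and 0.0422. Its SD of 0.0026 is the spread of those 2 values and is not a spread around −0.0065. The difference was −0.0180 with median signals, −0.0107 with median centring and 0.0120 with every probe counted on its own. The sign of the difference was thus not settled. The count of proteasome genes below 0 on both arrays was 0 and became 1 with median centring and 1 with every probe counted on its own. No setting called a gene by the 2-fold rule, each array alone included (0 to 0). Each array alone gave a core median of 0.03 to 0.26, a cap median of −0.0044 to 0.22, an immunoproteasome median of −0.28 to 0.27 and a core minus cap difference of 0.0385 to 0.0422. With median centring, 20 genes were above 0 on both arrays in place of 14. Single genes changed sign in 13 cases on array 1 alone, in 8 on array 2 alone and in 1 with the software's ratios (Psmd8, −0.0072). No paired analysis was possible because each array holds both genotypes, so the ratio is already paired within an array, and there is a single group of ratios. The cause of the differences between arrays was not tested.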
